A study of Mus musculus with 3 samples.

Results

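Cortical ureteric trunk cells are the epithelial cells of the branched ureteric tree that lie between its growing tips and the collecting ducts of the medulla. They were chosen by their own UMI counts (unique molecules read per gene) in whole E15.5 mouse kidneys. A barcode with 1000 to 6000 genes and at most 10% of its UMIs from mitochondrial genes was kept. A kept barcode was a member if it held at least 4 UMIs from at least 3 of *Calb1*, *Wnt9b*, *Mia*, *Cldn3* and *Ehf* and stayed within 4 limits, at most 1 UMI of *Ret* plus *Wnt11* (tip), at most 2 UMIs of *Fxyd4*, *Sprr2f*, *Spink8* and *Plet1* (medulla), at most 1 UMI of *Slc12a1* plus *Tmem52b* (loop of Henle) and at most 1 UMI of *Upk1b* plus *Upk3a* (urothelium). The rule gave 710 members of 12131 kept barcodes. The Enl-WT library held 481 of them among 5233 kept barcodes, the Enl-T1 library 100 among 4144 and the Enl-T1 TDI-11055 library, called the treated library below, 129 among 2754. Values given as 3 in a row follow that order.

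The experiment asked what a Wilms tumour mutation of ENL, a reader of acylated histones encoded by *Mllt1*, does to the embryonic kidney, and whether a drug that blocks the acyl-binding pocket changes it. All 3 libraries came from embryos carrying the *Wt1* GFPCre knock-in, which disrupts the *Wt1* allele it sits in. Enl-WT embryos had wild type *Enl*. Enl-T1 embryos were heterozygous for the conditional *Enl* flox-T1 allele, which encodes the T1 insertion after Cre acts. Enl-T1 TDI-11055 embryos had the Enl-T1 genotype, and their mothers were given TDI-11055 at 100 mg/kg by mouth each day from E10.5 to E14.5. The study places *Wt1*-Cre activity in the nephron and stromal lineages, so the ureteric tree lies outside the lineages in which the allele is meant to recombine, and recombination in the members was not read out here. The labels list Enl-WT and Enl-T1 as having no treatment, while the protocol names a vehicle. Kidneys of several embryos went into each untreated library, and the treated library held cells of both sexes and so more than 1 embryo. Each group is 1 library, so the values below have no replicate check, no test was run, and intervals are exact 95% intervals that cover counting error only.

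The ureteric bud grows into the metanephric mesenchyme and branches in response to GDNF, which signals through RET and GFRA1 at the tips. Behind the tips the trunk stops branching, extends and later becomes collecting duct. Trunk cells secrete WNT9B, which acts on the neighbouring nephron progenitors, and WNT7B from the more medullary duct acts on the stroma. Of the genes that chose the members, *Calb1* encodes the calcium-binding protein calbindin (GRCm38 chromosome 4, 15881264 to 15908064) and *Wnt9b* the ligand just named (chromosome 11, 103727364 to 103749821). *Mia* encodes a small secreted protein (chromosome 7, 27179742 to 27181157), *Cldn3* a tight junction claudin (chromosome 5, 134986214 to 134987472) and *Ehf* an epithelial ETS factor (chromosome 2, 103263433 to 103303278).

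The libraries stood apart in depth, and the rule counts UMIs. The median member held 4800 UMIs in Enl-WT, 9678 in Enl-T1, with 15072 in the treated library, and the members' summed UMIs were 2663352, 1000195 and 1710223. In the median member 16.5%, 27.1% and 27.3% of UMIs came from ribosomal protein genes. The mixture of sexes differed too, with *Xist* and no Y-linked UMI in 29.7%, 56% and 38.0% of members in the same order. Kept barcodes shared by sequence between pairs of libraries numbered 5 to 8, and 1 barcode was a member in 2 libraries.

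Trunk cells made up 9.19% of kept barcodes in Enl-WT (8.42 to 10.0), 2.41% in Enl-T1 (1.97 to 2.93), with 4.68% in the treated library (3.93 to 5.54). This order did not hold once depth was made equal. With every barcode thinned to 3000 UMIs before the rule was applied, and shallower barcodes left out, the share was 9.28% in Enl-WT (8.46 to 10.1), 6.12% in Enl-T1 (5.40 to 6.91), with 12.7% in the treated library (11.4 to 14.0). Enl-T1 had the lowest share under both settings, and the treated library moved from below to above Enl-WT.

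**Figure D1:**
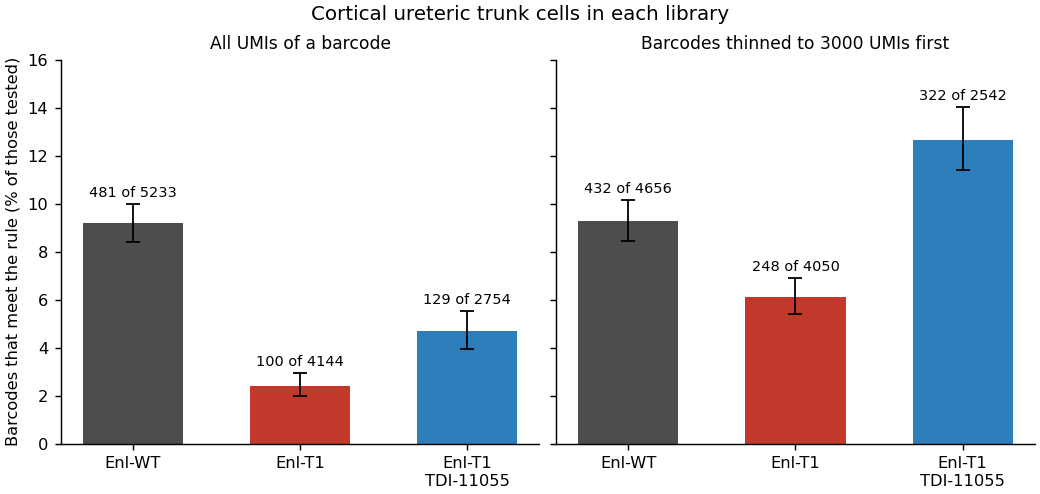
Share of tested barcodes that met the trunk rule in each library, as bars in percent with exact 95% binomial intervals and the counts above them; left, all UMIs of a barcode, right, every barcode thinned to 3000 UMIs first. Enl-T1 is lowest in both panels, and Enl-T1 TDI-11055 goes from 4.68% to 12.7%.

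The limits turned away different shares of the barcodes that held the positive markers. The positive part alone was met by 1131 barcodes in Enl-WT (21.6% of kept), 840 in Enl-T1 (20.3%), with 929 in the treated library (33.7%). Members were 42.5% of these in Enl-WT, 11.9% in Enl-T1, with 13.9% in the treated library, against 70.5%, 65.4% and 78.9% after thinning. The medullary limit turned away 26.1%, 62.7% and 44.0% of the barcodes with the positive markers, and the tip limit 31.3%, 31.4% and 51.6%. Endothelial-like barcodes, which should lack these duct genes, exceeded the medullary limit in 9 of 249 cases in Enl-T1 (3.61%), in 0 of 381 in Enl-WT and in 0 of 109 in the treated library. *Fxyd4* alone had a UMI in 5.77%, 27.3% and 14.7% of those endothelial-like barcodes. How far free RNA set the Enl-T1 share was not tested.

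At the edges of the rule, 5, 1 and 2 members of the 3 libraries sat at exactly 4 marker UMIs, and 9, 1 and 3 barcodes that met every limit fell just outside at 3 UMIs from 3 markers. The limits cut through a denser region. A single UMI of *Ret* plus *Wnt11* was held by 168 members in Enl-WT, 47 in Enl-T1, with 47 in the treated library, and 112, 51 and 47 barcodes failed that limit alone with exactly 2 UMIs. Exactly 2 medullary UMIs were held by 64, 30 and 35 members, and 31, 30 and 21 barcodes failed that limit alone with exactly 3.

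The members' marker levels, which the rule used, are given as a description. *Calb1* was at 1712.5 CPM (UMIs per 1000000 UMIs of the summed members) in Enl-WT, 2227 in Enl-T1, with 1982 in the treated library. *Cldn3* was at 442, 481 and 498 CPM, *Ehf* at 276, 174 and 227, *Mia* at 177, 267 and 207 and *Wnt9b* at 51.4, 51.0 and 77.2. *Wnt9b* was the scarcest of the markers, with a UMI in 22.9%, 35% and 51.2% of members, and in 8.40%, 6.12% and 10.3% when each cell was thinned to 2000 UMIs. The most frequent combination in Enl-WT and in Enl-T1 was *Calb1*, *Mia*, *Cldn3* and *Ehf* without *Wnt9b*, in 32.0% and 38% of members. In the deeper treated library 40.3% of members held all 5 markers, against 8.73% in Enl-WT and 26% in Enl-T1.

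Genes outside the rule showed the members to be epithelium with *Gata3* in all 3 libraries. After thinning to 2000 UMIs, *Epcam*, which encodes an epithelial adhesion protein, had a UMI in 92.4%, 88.8% and 88.9% of members, and *Gata3*, a transcription factor of the ureteric lineage, in 60.9% (56.4 to 65.3), 49.0% (38.7 to 59.3) and 43.7% (34.8 to 52.8). Among endothelial-like barcodes *Gata3* had a UMI in 1.34%, 0.402% and 0.917%. The study also uses *Gata3* as a marker of distal tubule, so *Epcam* and *Gata3* do not tell trunk from distal nephron. The 11 distal tubule and loop of Henle genes outside the rule summed to 637, 541 and 570 CPM in members. In kept barcodes that did not meet the positive part the sums were 394, 207 and 166 CPM. All 21 ureteric identity factors had at least 1 UMI in the summed members of each library, and 18 reached a mean of 20 CPM. *Foxa1* had 13, 2 and 1 UMIs, so detection alone is no sign of identity. The list summed to 3266 CPM in Enl-WT, 2700 in Enl-T1, with 2626 in the treated library, led by *Sox4*, *Gata3*, *Pax2* and *Mecom*. Mature duct genes differed in level. Of the principal cell list 7 of 16 genes reached a mean of 20 CPM, and of the intercalated cell list 1 of 12. Among the former, *Scnn1b* was at 42.4, 27.0 and 45.6 CPM and *Hsd11b2* at 43.2, 26.0 and 34.5 CPM. By contrast, *Aqp2* and *Foxi1* were near the floor. *Aqp2*, the vasopressin-regulated water channel of principal cells, had a UMI in 3 of 476, 1 of 98 and 1 of 126 thinned members, and *Foxi1*, the intercalated cell factor, in 2 of 476 and in none of 98 and 126, where a count of 0 allows up to 3.06% and 2.38%.

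Along the ureteric tree the members sat between 2 kinds of neighbour. Tip-side barcodes met the positive part and failed only the limit on *Ret* plus *Wnt11* (346, 208 and 384 in the 3 libraries), and medullary-side barcodes failed only the medullary limit (263, 380 and 275). Both neighbours were deeper than the members, with median UMIs of 6552, 12750 and 22573 on the tip side and 8490, 11575.5 and 18027 on the medullary side. *Etv4*, an ETS factor downstream of RET, had a UMI in 32.5%, 26.0% and 34.1% of thinned tip-side barcodes, in 16.2%, 11.2% and 12.7% of members, and in 1.52%, 2.89% and 1.45% of medullary-side barcodes, where endothelial-like barcodes had 1.88%, 0.402% and 3.67%. *Gfra1*, the GDNF co-receptor, was likewise in 58.8%, 41.8% and 47.7% on the tip side, 46.8%, 36.7% and 27.0% of members and 16.7%, 18.4% and 10.9% on the medullary side. The order was the reverse for *Cdh16*, a cadherin of kidney epithelium, with 22.9%, 26.4% and 21.6% on the tip side, 37.6%, 30.6% and 29.4% of members and 70.3%, 65.0% and 61.1% on the medullary side. *Krt8* and *Tfcp2l1*, a collecting duct transcription factor, had the same order in each library. For *Epcam* the intervals of the 3 positions overlapped in every library, and for *Gata3* they did so except in Enl-WT, where the tip side was below both members and the medullary side.

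**Figure D2:**
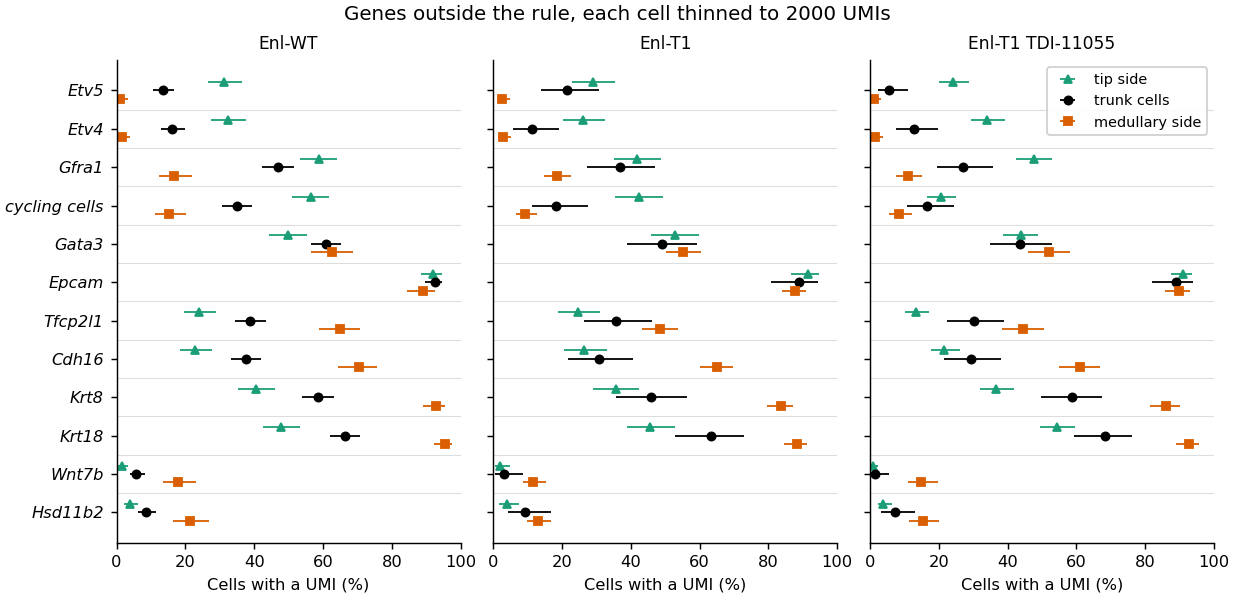
Percent of cells with a UMI of each gene (x axis) in tip-side barcodes (triangles), trunk cells (circles) and medullary-side barcodes (squares) of each library, after thinning every cell to 2000 UMIs, with exact 95% binomial intervals; cycling cells are those with UMIs of 2 or more of 5 mitotic genes. Trunk cells lie between the neighbours for the *Etv* genes, *Gfra1*, *Cdh16*, *Krt8* and *Tfcp2l1* in all 3 panels.

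The same position was seen across the transcriptome, as a description, since the rule's limits chose all 3 sets. Of 6514 genes outside the rule, 226 (3.47%) were at least 2-fold higher on the tip side than on the medullary side in every library, and 233 (3.58%) at least 2-fold lower. The members' level lay between the neighbours in all 3 libraries for 197 of the 226 (87.2%) and 200 of the 233 (85.8%). With the medullary side set to 0 and the tip side to 1 on the log2(CPM + 1) scale, the median member position over the tip-side genes was 0.77 in Enl-WT, 0.72 in Enl-T1, with 0.47 in the treated library, and over the medullary-side genes 0.64, 0.73 and 0.55. Outside that range, members were above both neighbours in all 3 libraries for 215 genes (3.3%) and below both for 225 (3.45%). How many genes would be so placed by counting error alone was not tested. No gene exceeded both, or fell short of both, by 1.5-fold in every library. The genes furthest above both, named after their values were seen, were *Gas2* (22.9, 21.0 and 21.6 CPM) and *Sostdc1*, which encodes an antagonist of BMP and Wnt signals, the latter at 43.2 CPM in Enl-WT members against 32.5 on the tip side and 19.5 on the medullary side.

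Against each neighbour alone, 11 of 6756 genes were at least 2-fold higher in members than on the tip side in every library (0.163%) and 9 were lower (0.133%). The higher genes included *Wnt7b* (31.2, 23.0 and 18.1 CPM in members, 8.72, 5.49 and 4.72 on the tip side), *Elf5*, an ETS factor of collecting duct (54, 22 and 56 UMIs, and 20.3 CPM against 5.55 CPM in Enl-WT) and *Nr3c1*, the glucocorticoid receptor (40.6, 24.0 and 23.4 against 11.9, 9.26 and 7.09). The lower genes included *Etv4* (93.9, 67.0 and 56.7 against 227, 143 and 211) and *Hs3st3b1*, an enzyme that sulfates heparan sulfate (59.7, 56.0 and 10.52 against 175, 136 and 98.6). The medullary side differed more. There 44 of 6987 genes were at least 2-fold higher in members (0.63%) and 173 lower (2.48%). *Etv4* was among the higher, at 6.61, 8.82 and 9.41 CPM on the medullary side. *Foxq1* had the opposite order, at 14.3, 32.0 and 11.1 CPM in members and 207, 280 and 188 CPM on the medullary side, as did *Rhcg*, the ammonia transporter of collecting duct, with 0 to 4.13 CPM in members and 25.7 to 62.2 CPM.

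Gene lists gave the same picture. The ureteric tip list without the rule's genes summed to 1914, 1877 and 1951 CPM on the tip side, 1201, 1220 and 1081 in members and 514, 580 and 639 on the medullary side. The keratins summed to 828, 844 and 832 on the tip side, 1340, 1101 and 1328 in members and 3825, 3399 and 3251 on the medullary side. The principal cell list was at 594, 547 and 347 on the tip side, 1046, 751 and 828 in members and 2510, 1803 and 1646 on the medullary side. Cycling cells, with UMIs of 2 or more genes among *Mki67*, *Ube2c*, *Hmmr*, *Top2a* and *Cenpf* after thinning, made up 56.5%, 42.3% and 20.6% of the tip side, 34.9%, 18.4% and 16.7% of members and 15.2%, 9.21% and 8.36% of the medullary side.

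Members were also split by their own tip and medullary UMIs. The rule used those UMIs, so the values are a description and support no gradient. In Enl-WT, *Etv4* was at 165 CPM in the 115 members with 1 tip UMI and no medullary UMI, 87.5 CPM in the 168 members with neither and 38.5 CPM in the 145 members with medullary UMIs alone. *Krt8* was at 304, 481 and 695 CPM, and *Wnt7b* was at 19.8, 18.2 and 53.6 CPM. *Gata3* differed little over the same 3 sets, at 441, 486 and 507 CPM. In Enl-T1 and the treated library the corresponding sets held 12 to 52 members, and *Etv4* was again highest in those with the tip UMI (115 and 141 CPM) and at most 85.1 CPM in the other sets. *Krt8* over these sets was at 292, 366 and 521 CPM in Enl-T1, and at 407, 433 and 432 CPM in the treated library, where it differed little. In all, 34.9% of Enl-WT members, 47% of Enl-T1 members and 36.4% of treated members held 1 tip UMI.

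Between libraries, members were compared on their summed UMIs for 6560 genes with a mean of at least 20 CPM. The median log2 ratio of all genes was -0.29 in the comparison of Enl-T1 with Enl-WT and 0.01 in that of the treated library with Enl-T1, and each log2 ratio below is relative to that median. A gene is called higher or lower past 2-fold, a centred log2 ratio of at least 1 or at most -1. In Enl-T1 over Enl-WT 251 genes were higher (3.83%) and 184 lower (2.8%), and 133 were higher and 588 lower without centring. In treated over Enl-T1 74 were higher (1.13%) and 125 lower (1.91%). The comparisons share the Enl-T1 library, so an odd value there appears in both with opposite sign. For each gene the ratio in the remaining kept barcodes, those that did not meet the positive part, is given as the library-wide value.

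Trunk cells of Enl-T1 had a high level of *Sct* (GRCm38 chromosome 7, 141278330 to 141279133), which encodes the hormone secretin. It was at 97.6 CPM in Enl-WT members (260 UMIs), 617 in Enl-T1 (617 UMIs) and 180 in the treated library (308 UMIs). The Enl-T1 value was the highest, and none of the 3 counting intervals overlapped (86.1 to 110, 569 to 668 and 161 to 201 CPM). The log2 ratio was 2.95 (2.74 to 3.17) for Enl-T1 over Enl-WT and -1.79 (-1.99 to -1.59) for treated over Enl-T1, against 1.37 and -0.10 in the remaining barcodes. More cells held it: after thinning to 2000 UMIs, 15.1% of Enl-WT members (12.03 to 18.7), 57.1% of Enl-T1 members (46.7 to 67.1) and 26.2% of treated members (18.8 to 34.8) had a UMI of *Sct*, and at most 1.61% of endothelial-like barcodes did. With members chosen after thinning the shares were 17.1%, 52.4% and 22.7%. The tip side had 116, 519 and 196 CPM and the medullary side 31.9, 225 and 97.5 CPM, so the same order of libraries was present in all 3 positions.

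**Figure D3:**
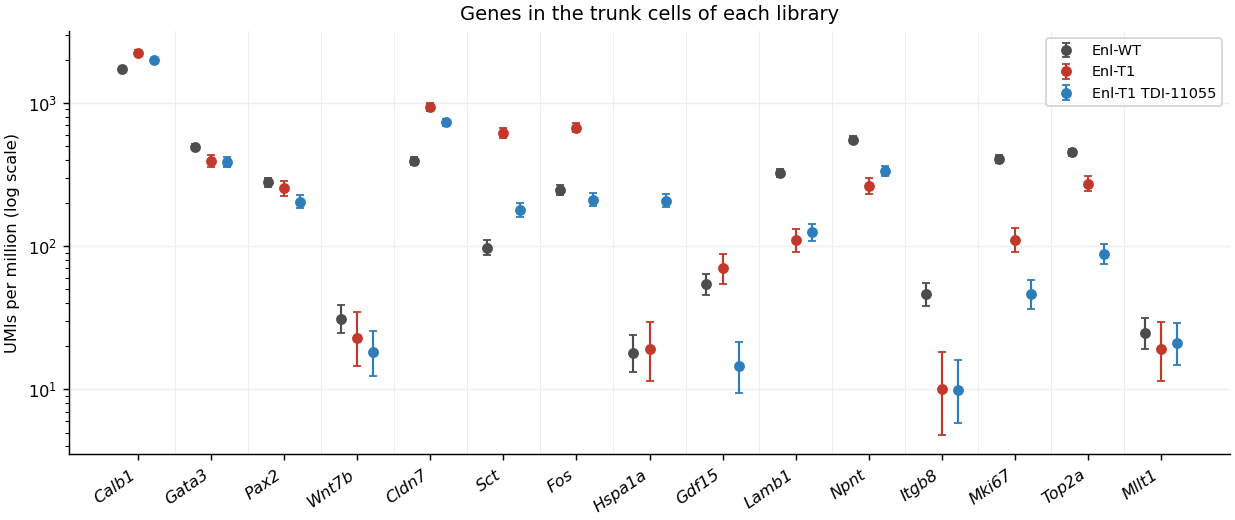
CPM (log axis) of 15 genes in the summed trunk cells of each library, with exact Poisson 95% intervals that cover counting error only. *Sct* and *Fos* are highest in Enl-T1, *Hspa1a* is 208 CPM in Enl-T1 TDI-11055 and under 20 CPM in the others, and *Lamb1*, *Npnt*, *Itgb8* and *Mki67* are highest in Enl-WT.

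Other epithelial genes past 2-fold higher in Enl-T1 included *Cldn7*, a tight junction claudin, at 391.6, 943 and 730 CPM in the 3 libraries. Its log2 ratio for Enl-T1 over Enl-WT was 1.56 (1.43 to 1.69), with 0.89 in the remaining barcodes. *Sox9*, a transcription factor of the branching tip, was at 143, 262 and 215 CPM with a log2 ratio of 1.17 (0.94 to 1.40), close to the 1.12 of the remaining barcodes. *Aldh1a3*, which makes retinoic acid, was at 143, 250 and 170 CPM with a log2 ratio of 1.10 (0.86 to 1.33), against -0.31 in the remaining barcodes. The Notch target *Hes1* was at 282, 484 and 421 CPM, with a log2 ratio of 1.08 that was 0.80 when members were chosen after thinning. Of 18 ureteric identity factors tested, 1 was higher past 2-fold (*Sox9*), none was lower and the median log2 ratio was 0.05. These counts are near the shares over all genes, 3.83% higher and 2.8% lower. *Gata3* was at 493, 393 and 386 CPM (log2 ratio -0.03, -0.20 to 0.13) and *Pax2* at 280, 253 and 205 CPM.

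Basement membrane genes were lower in Enl-T1 trunk cells as a group. This matrix of laminins, type IV collagen and nephronectin surrounds the ureteric epithelium, and integrins bind it. The 37 genes of the list summed to 3989 CPM in Enl-WT, 1966 in Enl-T1, with 1855 in the treated library. All 21 tested were below the median of all genes in Enl-T1 over Enl-WT, with a median log2 ratio of -0.74, and 3 of the 21 were lower past 2-fold (2.8% over all genes). *Npnt*, the nephronectin that binds integrin alpha8 on the mesenchyme, was at 555 CPM in Enl-WT, 263 in Enl-T1, with 336 in the treated library. *Lamb1*, a laminin chain, was at 326, 110 and 125 CPM with a log2 ratio of -1.27 (-1.57 to -0.98), and *Itgb8*, an integrin subunit, at 46.2, 10.0 and 9.94 CPM with -1.91 (-3.01 to -0.99). *Lama5*, named after its value was seen, was the third, at 140, 53.0 and 54.4 CPM. *Itgb1* was at 252, 166 and 161 CPM and *Col4a1* at 369, 208 and 169 CPM.

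The ratio was of like size outside trunk cells, and that difference was not tested. In the remaining barcodes the median of the 24 tested list genes was -0.88, and the list sum was 3738, 2040 and 1663 CPM on the tip side and 5176, 2823 and 2593 CPM on the medullary side. With members chosen after thinning the members' median was -0.49. Thinned shares of cells behaved the same way, with *Lamb1* in 46.2%, 16.3% and 19.8% of members and *Npnt* in 61.8%, 39.8% and 42.9%. Endothelial-like barcodes had *Lamb1* in 19.3%, 18.5% and 13.8% and *Npnt* in 4.29%, 4.82% and 0.917%. For the treated library over Enl-T1 the list's median was -0.11, with none of 21 genes past 2-fold either way (over all genes 1.13% higher and 1.91% lower).

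**Figure D4:**
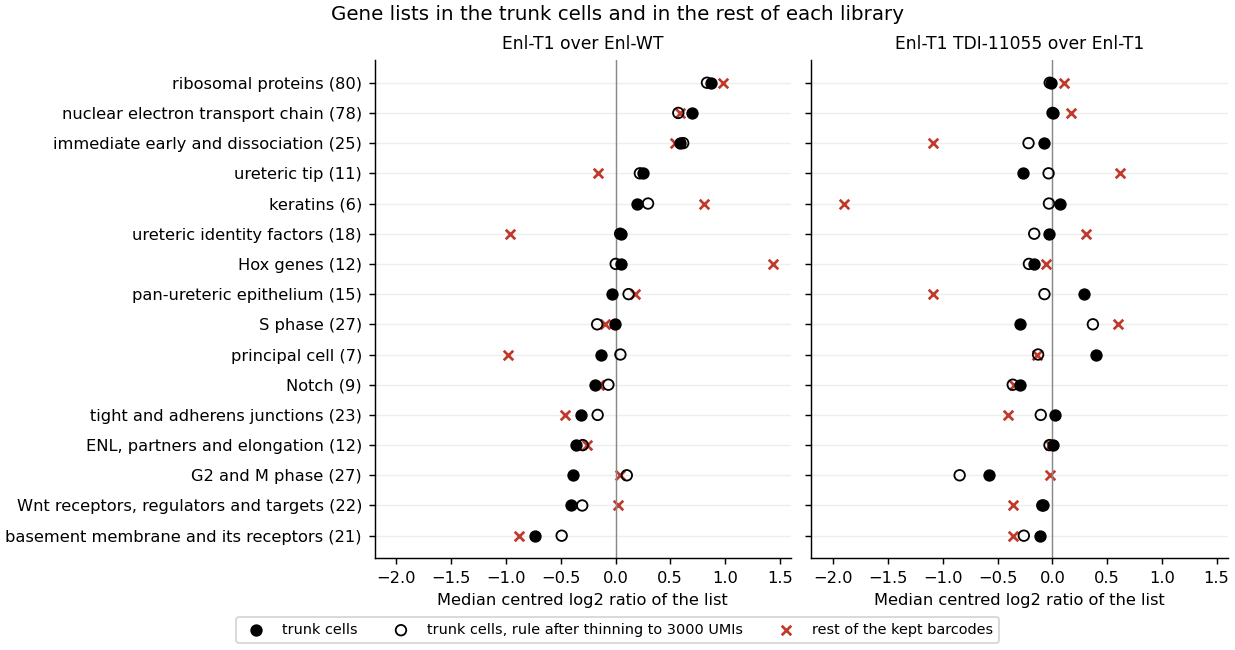
Median centred log2 ratio of each gene list (number of genes tested in trunk cells in brackets) with Enl-T1 over Enl-WT on the left and the treated library over Enl-T1 on the right, in trunk cells (filled), in trunk cells chosen after thinning (open) and in the remaining kept barcodes (crosses). Basement membrane genes are at -0.74 in trunk cells and -0.88 in the rest on the left, while Hox genes are at 0.05 in trunk cells and 1.43 in the rest. The ureteric tip list holds *Ret* and the junction list *Cldn3*, which the rule used.

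Ribosomal protein and respiratory chain genes were higher in Enl-T1 over Enl-WT, with library-wide values of like size. Of 80 ribosomal protein genes tested 33 were past 2-fold higher (3.83% over all genes) and 79 were above the median of all genes (median 0.87, 0.98 in the remaining barcodes). Of 78 nuclear electron transport chain genes 22 were past 2-fold higher and 72 above the median of all genes (median 0.69, 0.59 in the remaining barcodes). *Ndufa3*, a complex I subunit, was at 64.2, 230 and 226 CPM and *Atp5k*, an ATP synthase subunit, at 80.0, 292 and 294 CPM. In treated over Enl-T1 both lists were level, with medians of -0.01 and 0.01 and no gene past 2-fold (over all genes 1.13% higher and 1.91% lower). Outside the ribosomal protein genes, the highest ratios in Enl-T1 over Enl-WT belonged to *Pam16*, a subunit of the mitochondrial import motor, with 1, 47 and 119 UMIs in the members, and to the predicted gene *Gm10076* with 9, 101 and 311 UMIs. The remaining barcodes gave ratios of like size, 8.02 and 4.74 on the log2 scale beside 7.26 and 5.20 in members, and reads of *Gm10076* or *Ndufb1-ps* may be shared with near-identical copies.

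Cell cycle genes depended on which cells counted as members. The 27 tested genes of the G2 and M phase list had a median log2 ratio of -0.39 in Enl-T1 over Enl-WT, with 5 lower past 2-fold (2.8% over all genes). That median was 0.10 when members were chosen after thinning and 0.04 in the remaining barcodes. The list summed to 5003, 3819 and 2610 CPM. *Mki67*, a protein of the mitotic chromosome surface, was at 407, 111 and 46.2 CPM, with log2 ratios of -1.58 (-1.88 to -1.30) and then -1.27 (-1.71 to -0.85), and -1.18 and -0.88 in the remaining barcodes. *Top2a*, a DNA topoisomerase, was at 454, 273 and 88.3 CPM. For the treated library over Enl-T1 the G2 and M list had a median of -0.58 (-0.85 when members were chosen after thinning, -0.02 in the remaining barcodes). Past 2-fold 9 of 27 were lower, beside 1.91% over all genes. The 27 S phase genes had medians of -0.01 and -0.30, the latter 0.37 when members were chosen after thinning. The 34.9%, 18.4% and 16.7% of cycling members became 35.9%, 30.6% and 17.4% with members chosen after thinning, while endothelial-like barcodes had 45.6%, 20.5% and 20.2%.

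The tested Hox genes of trunk cells had medians near that of all genes, though levels of single genes differed. In members 12 of 39 Hox genes were tested, none was past 2-fold in either comparison and the medians were 0.05 and -0.17. So few genes say little beside the shares over all genes, 3.83% higher and 2.8% lower, then 1.13% and 1.91%. Above the median of all genes were 8 of the 12 in the first comparison and 4 in the second. Summed CPM of the list was 2020, 1665 and 1539, and *Hoxb5* was at 71.3, 65.0 and 38.6 CPM. The list was led by *Hoxb9* at 435, 337 and 245 CPM and *Hoxb8* at 247, 213 and 174 CPM. The 12 genes of paralog groups 10 to 13 together made up 60.1 CPM in Enl-WT members (51.1 to 70.1), 44.0 in Enl-T1 (32.0 to 59.1) and 52.0 in the treated library (41.8 to 64.0). In the remaining barcodes the same genes were at 363, 1047 and 804 CPM, and the median log2 ratio of the 26 Hox genes tested there was 1.43 for Enl-T1 over Enl-WT.

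*Mllt1* was at 24.8 CPM in Enl-WT members (66 UMIs), 19.0 in Enl-T1 (19 UMIs) and 21.0 in the treated library (36 UMIs), with intervals that overlapped, and these reads do not tell the mutant from the wild type transcript. *Wt1*, which the Cre knock-in follows, had 25, 0 and 6 UMIs. Of 12 ENL partner and elongation genes tested 2 were lower past 2-fold in Enl-T1 over Enl-WT (2.8% over all genes), *Mllt6* (60.8, 24.0 and 23.4 CPM, 162, 24 and 40 UMIs) and *Mycn* (80, 12 and 42 UMIs). The list's median was -0.36 with -0.26 in the remaining barcodes.

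Among Wnt genes, the ligands were few. *Wnt4* was at 63.5, 64.0 and 57.3 CPM, *Wnt5a* at 55.2, 69.0 and 41.5 CPM and *Wnt7b* at 31.2, 23.0 and 18.1 CPM. Only 4 of 19 ligands were tested, these 3 and *Wnt9b*, and none of the 4 was past 2-fold in either comparison. *Wnt9b* helped to choose the members, so its level was partly set by the rule. So small a count says little beside the shares over all genes. Below the 20 CPM minimum, *Wnt6* had 47, 1 and 36 UMIs and *Wnt11*, which the rule limited, had 31, 12 and 15. The 22 tested receptors, regulators and targets had a median of -0.41 in Enl-T1 over Enl-WT, 0.02 in the remaining barcodes. Past 2-fold 3 of them were lower (2.8% over all genes) and none higher (3.83% over all genes). *Axin1*, a scaffold of the beta-catenin destruction complex, had 140, 16 and 33 UMIs (log2 ratio -1.42, -2.27 to -0.67). The other two were *Fzd1*, a receptor, and *Lgr4*, an R-spondin receptor, named after their values were seen. In that comparison 6 of the 22 were above the median of all genes. These were *Lgr5* (log2 ratio 0.95), *Axin2* (0.73), *Nkd1* (0.58), *Tcf7l2* (0.58), *Rnf43* (0.43) and *Znrf3* (0.29). The feedback target *Axin2* was at 45.1, 61.0 and 56.7 CPM. Of 23 junction genes tested in the same comparison 2 were higher, *Cldn7* and *Cldn9*, and 2 lower, *Cgn* (79.2, 31.0 and 44.4 CPM) and *Pard6b*, with a median of -0.32. The 23 include the rule gene *Cldn3*, and over all genes 3.83% were higher and 2.8% lower.

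The genes lowest in Enl-T1 over Enl-WT by the bound of the interval nearest 0 included *Uaca* with 155, 7 and 35 UMIs in members and a log2 ratio of -2.76 (-4.10 to -1.68) beside -1.43 in the remaining barcodes. *Peg10*, an imprinted gene, was at 55.2, 10.0 and 15.8 CPM (-2.17, and -0.89 in the remaining barcodes). *Ankrd11*, a chromatin regulator, was at 534, 183 and 200 CPM (-1.25, and -1.19 in the remaining barcodes). *Cald1*, the actin-binding caldesmon, was at 52.9, 10.0 and 5.26 CPM (-2.11, and 0.09 in the remaining barcodes). *Cald1* is abundant outside the epithelium, at 364, 310 and 180 CPM in the remaining barcodes, and its order over the libraries' members was that of the stromal sum given below.

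In treated over Enl-T1 the gene with the highest ratio by its nearer bound was *Hspa1a*, an inducible heat-shock protein, at 18.0, 19.0 and 208 CPM in the 3 libraries. The log2 ratio was 3.44 (2.78 to 4.19), with 2.13 in the remaining barcodes, and 4.20%, 2.04% and 23.0% of thinned members held a UMI. Endothelial-like barcodes had it in 8.31%, 2.81% and 19.3%. *Hspa1b* was at 14.6, 18.0 and 102 CPM and *Ubb*, polyubiquitin, at 1012, 1071 and 1901 CPM (log2 ratio 0.82, and 0.79 in the remaining barcodes). *Bbc3*, a pro-apoptotic BH3 protein, had 78, 20 and 92 UMIs. *Igfbp2*, an IGF-binding protein, was at 164, 70.0 and 211 CPM, with a log2 ratio of 1.58 (1.21 to 1.97) against -0.15 in the remaining barcodes. *Crabp2*, a retinoic acid binding protein, was at 45.4, 37.0 and 90.0 CPM, with a ratio of 1.27 that was 0.48 when members were chosen after thinning.

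Among immediate early genes, which growth factors and tissue dissociation induce within minutes, a few differed between libraries while the list as a whole summed to 10519, 10889 and 11021 CPM. In Enl-T1 over Enl-WT 4 of 25 tested were higher past 2-fold (3.83% over all genes) and none lower (2.8%), with a median of 0.59, and 0.55 in the remaining barcodes. *Fos* was at 246, 672 and 211 CPM, with log2 ratios of 1.75 (1.59 to 1.90) and -1.68 (-1.87 to -1.49), against 1.59 and -2.13 in the remaining barcodes. For the treated library over Enl-T1 4 of 25 were lower (1.91% over all genes) and 2 higher (1.13%), the heat-shock pair, with a median of -0.08 against -1.09 in the remaining barcodes. *Jun*, by contrast, was at 1720, 1910 and 2307 CPM. *Arc* was at 18.4, 41.0 and 8.77 CPM and *Gdf15*, a stress-induced cytokine, at 54.4, 70.0 and 14.6 CPM with a log2 ratio of -2.27 (-2.99 to -1.59) for treated over Enl-T1. *Hs3st3b1*, at 59.7, 56.0 and 10.52 CPM, had a ratio of -2.42 that was -0.23 when members were chosen after thinning, and it is a gene of the tip side. *AA465934* was at 21.8, 54.0 and 2.34 CPM with -4.54 (-6.47 to -3.10), and the remaining barcodes gave -4.58.

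RNA of other cell types was present in members, and of the lists for other cell types the erythroid list had the largest sum. The 12 stromal genes summed to 282 CPM in Enl-WT members (752 UMIs), 94.98 in Enl-T1 (95 UMIs) and 35.7 in the treated library, with *Col1a1* at 47.3, 15.0 and 0.585 CPM and *Col3a1* with 149, 16 and 4 UMIs. The same list was at 70.2, 128 and 19.1 CPM on the tip side and 1371, 2567 and 1003 CPM in the remaining barcodes. Podocyte genes summed to 130, 25 and 25 UMIs, nephron progenitor genes to 208, 48 and 78, endothelial genes to 182, 35 and 67, proximal tubule genes to 150, 4 and 30, urothelial genes to 21, 14 and 11 and immune genes to 91, 41 and 42 UMIs. The erythroid list summed to 1858, 1855 and 1081 CPM, which was above *Calb1* in Enl-WT, and was led by *Hbb-bs* at 879, 1062 and 502 CPM. The embryonic *Hbb-y* was at 104, 1.00 and 72.5 CPM and *Hba-x* at 51.1, 1.00 and 44.4 CPM. The part of these transcripts in the differences above was not tested.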

How the data were processed

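Each library was made from E15.5 whole kidneys with 10x Chromium 3' chemistry. Per the labels and the study's methods, the authors ran Cell Ranger 6.1.2 on mm10 and deposited matrices of UMI counts per gene and barcode, which are not normalised. No step of the authors' later filtering, integration or clustering was used. Barcodes numbered 7186, 6575 and 6453 and kept barcodes 5233, 4144 and 2754 in the order wild type, Enl-T1, treated.

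The members and gene lists were chosen with earlier results of these data known. UMIs were summed over members, divided by the total and multiplied to CPM (numpy 2.4.6, scipy 1.17.1, pandas 2.3.3). Ratios carry exact conditional binomial intervals, levels exact Poisson intervals and shares exact Clopper-Pearson intervals. UMIs are not independent of cell and library, so the intervals cover counting error only, and p-values were not computed because each group is 1 library. Log2 ratios were centred on the median of genes with at least 20 CPM. List medians are given for lists with at least 5 genes tested. Ratios to neighbours used log2(CPM + 1). Thinning drew UMIs without replacement, to 3000 before the rule and to 2000 for shares. Endothelial barcodes held at least 3 UMIs from at least 2 of *Pecam1*, *Cdh5*, *Kdr* and *Emcn* and at most 1 of *Epcam* plus *Cdh1*. Doublets were left in, free RNA was not removed, and Scrublet (scanpy 1.11.5) served as an alternative. The calculations were tested on simulated data. Named genes were the rule's 15 genes, the 8 highest and 8 lowest ratios per comparison by the nearer interval bound (without mitochondrial, ribosomal, haemoglobin and sex-linked genes), the 4 most abundant and the extreme genes of each list, the 8 largest and 8 smallest ratios to each neighbour, *Mllt1* and *Wt1*. Other genes named were chosen after their values were seen, as were the comparison of positions between neighbours and the split of members by tip and medullary UMIs. Gene positions are from GENCODE M21 (GRCm38, the mm10 assembly).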

Additional observations from a re-analysis of the deposited data

How the results depend on the processing

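Each group is 1 library, so no library could be left out and no paired analysis was possible because the groups share no replicate pairs. With members chosen after thinning to 3000 UMIs the trunk share was 6.12% in Enl-T1 and 12.7% in the treated library, and with at least 6 UMIs from at least 4 markers it was 4.45%, 1.76% and 3.27% in the 3 libraries. Among female cells it was 10.3% in Enl-WT and 1.84% in Enl-T1, and among male cells 4.10% in Enl-T1. In Enl-T1 over Enl-WT the counts of genes past 2-fold were 133 higher and 588 lower without centring, 307 lower on the total without technical genes, 520 higher and 589 lower with a minimum of 5 CPM, 68 lower after thinning and 580 lower in male cells. In treated over Enl-T1 they were 21 higher and 57 lower after thinning, 344 and 276 in male cells, 229 and 276 in female cells, 436 and 504 with a minimum of 5 CPM, 112 higher on the mean of per-cell CPM and 72 lower with no upper limit on genes per barcode.

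Some list medians changed sign. After thinning, G2 and M phase was at 0.10 in Enl-T1 over Enl-WT, and in treated over Enl-T1 the pan-ureteric list was at -0.072, principal cell at -0.13, S phase at 0.37, replication histones at 0.044 and erythroid at 1.25. In treated over Enl-T1 principal cell was at -0.18 and erythroid at 1.28 in male cells, S phase was at 0.087 on the mean of per-cell CPM, and with no upper limit on genes erythroid was at 1.57 and the log2 ratio of *Col1a1* at 0.062. The cause was not tested. Of the 16 genes named for Enl-T1 over Enl-WT by the interval bound, 14 stayed past 2-fold in each setting that gave a value (10 of 12 settings for *Pam16* and 11 for *Uaca*), with *Sct* between 2.66 and 3.16. Of the 16 named for treated over Enl-T1, 8 did, among them *Hspa1a* between 2.99 and 4.17 and *Sct* between -2.49 and -1.40, and not *Gdf15*, which reached -0.09. The basement membrane median lay between -1.03 and -0.49 in Enl-T1 over Enl-WT. The 100 Enl-T1 members limit each value of that library, and a gene at 20 CPM there rests on about 20 UMIs.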
